A study of Mus musculus with 15 samples.

Results

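The genes described are the mouse ligands, receptors and extracellular regulators of TGF-beta, bone morphogenetic protein (BMP) and activin signalling. They were taken by symbol from the deposited expression table: the Bmp, Gdf, Inh and Tgfb ligands, the Acvr, Bmpr and Tgfbr receptors, and Fst, the Fstl genes, Nog, Chrd and Grem1. The 49 genes described are among the 38283 genes of the table. Of these 49, 17 had a mean above 1 FPKM (a read density corrected for the length of the transcript and the size of the library) in at least 1 islet cell type and were tested for differences. A further 9 were listed at 0 in every sample, and 23 had low values.

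RNA was sequenced from 15 samples of FACS-sorted islet cells of C57BL/6 mice to compare the transcriptomes of alpha, beta and delta cells. Glu-Venus mice, in which the proglucagon promoter drives the fluorophore Venus, gave 5 alpha and 4 beta cell samples. Alpha cells were sorted as Venus-positive, whereas for beta cells a gate of high scatter and autofluorescence was set on cells without Venus. The 6 delta cell samples were obtained from Sst-CreXROSA26EYFP/EYFP mice, in which Cre under the somatostatin promoter switches on EYFP. Mouse line and cell type cannot be told apart for delta cells. Each sample held islets pooled from several mice, and the replicate error given here is therefore that of pools, not of single animals. No treatment is given in the labels.

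Ligands of this superfamily are secreted dimers that bring together 2 kinds of serine/threonine kinase receptor. The type II receptor binds ligand with, and phosphorylates, a type I receptor, which in turn phosphorylates Smad proteins. ALK4, ALK5 and ALK7, the products of Acvr1b, Tgfbr1 and Acvr1c, signal through the activin and TGF-beta Smads, whereas the type I receptors for BMPs signal through the BMP Smads. Both kinds of Smad enter the nucleus with Smad4. Secreted proteins such as follistatin, noggin, and chordin bind ligands and keep them from their receptors. In the pancreas the pathway takes part in the formation of endocrine cells and in the control of hormone secretion.

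The main hormone of each cell type followed the labels. Gcg ranged from 184426 to 344947 FPKM in alpha cells, Ins2 from 91248 to 638871 FPKM in beta cells, and Sst from 101492 to 266276 FPKM in delta cells. Sst in alpha and beta cells was at 0.992% and 0.101% of its mean in delta cells, and the delta cell transcription factor gene Hhex at 0.991% and 0.155%. Without beta 2 the values in beta cells were 0.0406% and 0.0626%, and without alpha 2 that of Hhex in alpha cells was 0.364%. Library sizes are not given. The smallest increments of low values were regular enough in 6 samples to estimate 7.47 to 30.5 M reads; in the other 9, among them all beta cell samples, the depth is unknown. The summed FPKM of 81 ribosomal protein genes divided the samples into a high set (66048 to 141551 FPKM) and a low set (8177 to 39064 FPKM). The high set held alpha 1 to 3, beta 2, and delta 1 and 2, and the low set the other 9. FPKM summed over all genes was also higher in the high set, at 1.25e+07 to 2.63e+07 against 2.82e+06 to 4.67e+06. The gene Gm12563 alone made up 31.8% to 59.5% of this sum in each sample. Acinar marker genes summed to 0.122 to 83.8 FPKM in alpha, 0.0447 to 14.8 FPKM in beta and 2.79 to 501 FPKM in delta cells; their part in the differences below was not tested. Ppy, the hormone gene of pancreatic polypeptide cells, was at 17728 to 41392 FPKM in alpha, 16.9 to 98.1 FPKM in beta and 10857 to 48600 FPKM in delta cells. The 5 ductal marker genes summed to 36.0 to 172 FPKM in alpha, 6.55 to 23.0 FPKM in beta and 26.6 to 92.0 FPKM in delta cells. The ductal genes Krt19 and Sox9 differed in opposite ways: Krt19 reached 4.27 FPKM in alpha and 0.645 FPKM in beta cells and was listed at 0 in all 6 delta samples, while Sox9 was at 0.112 to 2.33 FPKM in delta cells and at most at 0.0131 FPKM in any other sample. The part of these markers in the differences below was not tested either. The defining endothelial, immune and Schwann cell genes Cdh5, Ptprc and Sox10 were at most at 0.0806, 0.0581 and 0.0134 FPKM in any sample.

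Delta cells stood apart in 3 genes of secreted proteins. Bmp3, Bmp6 and Fstl5 were higher in delta cells than in both alpha and beta cells, with no overlap between samples. All 3 had a mean above 1 FPKM in delta cells alone, and the share of all genes without such overlap was not counted. Tgfb2 was highest in alpha cells. Among the receptors, delta cells had more Acvr1b and less Acvr1c than beta cells, while Bmpr1a, Acvr2a, Bmpr2, Acvr1 and Tgfbr1 were present at mean levels of 5.38 FPKM or more in all 3 cell types.

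**Figure D1:**
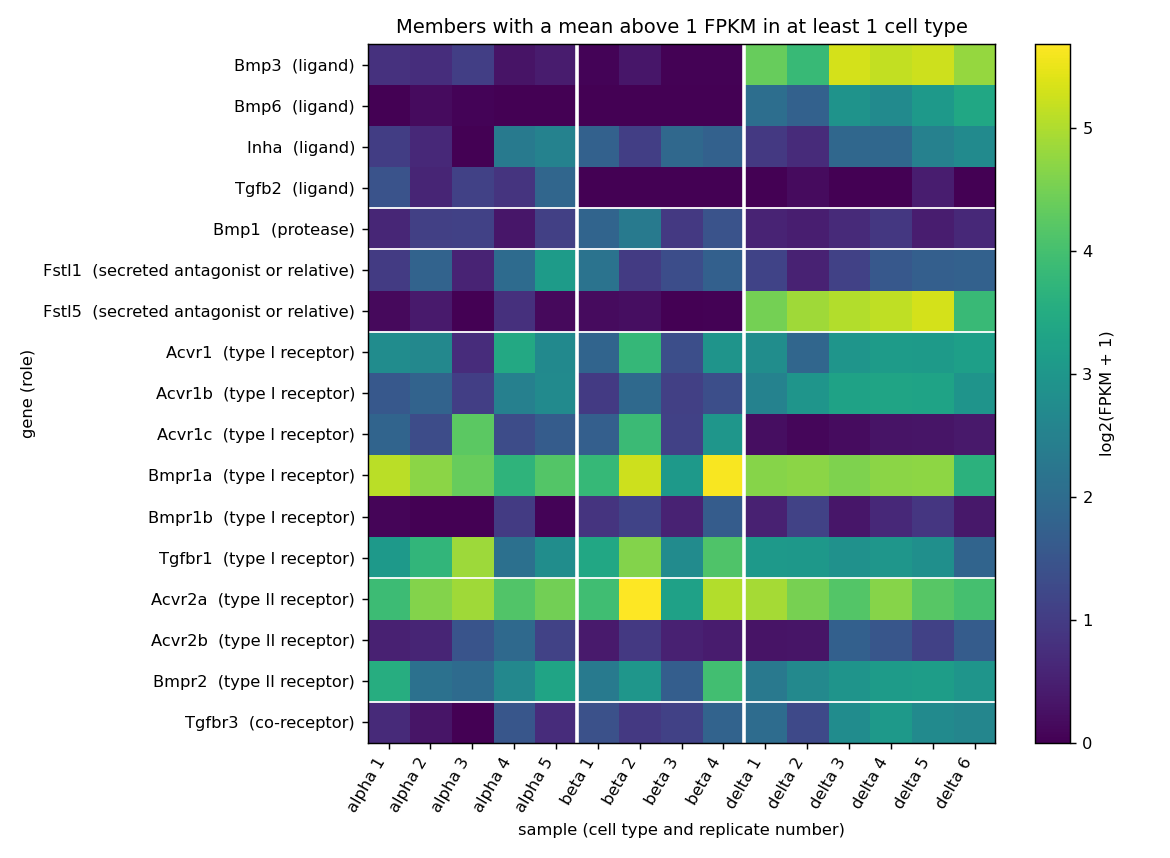
Levels of the 17 tested genes (rows, with their roles) in each of the 15 samples (columns), as log2(FPKM + 1) on the colour scale. Bmp3 and Fstl5 are bright in the 6 delta cell samples and dark in the alpha and beta cell samples, whereas Bmpr1a and Acvr2a are bright across all 3 cell types.

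Bmp3 (ENSMUSG00000029335, chromosome 5, 98854415 to 98884396, GRCm38) encodes a divergent BMP that can oppose the signalling of other BMPs and activin. In alpha samples 1 to 5 it was at 0.740, 0.663, 1.08, 0.236 and 0.343 FPKM, and in beta samples 1 to 4 at 0.0327, 0.263, 0.0245 and 0.0292 FPKM. The 6 delta cell samples ranged from 13.1 to 38.6 FPKM with a median of 30.5 FPKM. All delta samples were above all others, whereas alpha and beta samples overlapped. The mean in delta cells was 28.3 ± 10.4 FPKM (SD, n = 6), 46.1 times that of alpha cells and 324 times that of beta cells, or 980.1 times that of beta cells without beta 2. Differences between cell types were tested with limma on log2(FPKM + 1), a scale that understates the change of low genes, with p adjusted over all 14405 genes tested. The log2 difference was 4.11 from alpha cells (SE 0.296, adjusted p = 1.80e-07) and 4.66 from beta cells (SE 0.316, adjusted p = 9.78e-08). In sorted bulk samples, a lower level per cell and fewer cells with the transcript cannot be told apart. The mean of Bmp3 in alpha cells was 2.17% of that in delta cells, beside the 0.992% of Sst, and in beta cells 0.309%, beside 0.101% (0.102% and 0.0406% without beta 2); the part of RNA carried over from delta cells in these values was not tested.

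Bmp6 (ENSMUSG00000039004, chromosome 13, 38345107 to 38500302), a BMP ligand known for its control of hepcidin and iron, was listed at 0 in alpha 1, 4 and 5 and in beta 1 and 2. It was at 0.126 and 0.0376 FPKM in alpha 2 and 3, and at 0.00618 and 0.00596 FPKM in beta 3 and 4. In delta cells it ranged from 2.41 to 9.41 FPKM with a median of 6.08 FPKM. Every delta sample was therefore above every alpha and beta sample, and those of the high ribosomal set, delta 1 and 2, were the lowest. The log2 difference was 2.60 from alpha cells (SE 0.287, adjusted p = 1.69e-05, limma) and 2.65 from beta cells (SE 0.305, adjusted p = 2.36e-05, limma). Within the high set, which holds beta 2 alone of the beta samples, these differences were 1.83 and 1.91, and within the low set 3.02 and 3.01, on the same log2 scale. An exon of Bmp6 overlaps one of Txndc5 on the opposite strand, and the labels do not say that reads were assigned by strand; Txndc5 was at 13.8, 9.78 and 26.2 FPKM on average in alpha, beta and delta cells.

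Tgfb2 (ENSMUSG00000039239, chromosome 1, 186622792 to 186705989) encodes one of the 3 TGF-beta ligands, which are secreted in a latent form. It was at 1.74, 0.510, 1.15, 0.813 and 2.65 FPKM in alpha samples 1 to 5 and listed at 0 in all 4 beta samples. In delta cells it ranged from 0 to 0.381 FPKM with a median of 0.00847 FPKM. No delta or beta sample reached the lowest alpha sample. The mean log2(FPKM + 1) of beta cells was below that of alpha cells, with a difference of -1.18 (SE 0.290, adjusted p = 0.0215, limma), a size that depends on the pseudocount because beta cells were listed at 0. For delta against alpha cells it was -1.07 (SE 0.262, adjusted p = 0.0179, limma). The 6 mesenchymal marker genes moved with Tgfb2: they summed to 0.848 to 3.81 FPKM in alpha cells, to at most 0.00687 FPKM in beta cells and to at most 0.101 FPKM in delta cells. That sum was nearly all Col1a2 (0.848 to 3.79 FPKM in alpha cells), while Col1a1, Pdgfrb and Lum were listed at 0 in all 5 alpha samples and Col3a1 and Dcn were at most at 0.00774 and 0.0227 FPKM. The ductal keratin gene Krt19 was also highest in alpha cells, with a mean of 1.96 FPKM against 0.276 FPKM in beta cells and 0 in every delta sample, although alpha 1 was listed at 0. The part of either set of markers in the Tgfb2 differences was not tested.

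Inha, which encodes the inhibin alpha subunit that pairs with an activin beta chain to form inhibin, was the remaining tested ligand gene. Its means were 2.09 ± 2.17 FPKM in alpha (SD, n = 5), 2.16 ± 0.754 FPKM in beta (SD, n = 4) and 2.88 ± 1.98 FPKM in delta cells (SD, n = 6). Alpha samples ran from 0 in alpha 3 to 4.74 FPKM in alpha 5, a wider range than the distance between the cell types. No difference was called, and the smallest adjusted p of the 3 comparisons was 0.704 (limma). The activin beta chain gene Inhba was at 0 to 1.55 FPKM in alpha, 0 to 2.05 FPKM in beta and 0.116 to 1.29 FPKM in delta cells, and its mean was at most 0.720 FPKM.

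The other 24 ligand genes had means below 1 FPKM in each cell type. Those listed at 0 in every sample were Bmp8a, Bmp10, Bmp15, Gdf2, Gdf5, Gdf6, Gdf7, Gdf10 and Inhbc. Bmp7, a BMP of kidney and eye development, was above 0 in all delta samples, at 0.0663 to 1.12 FPKM, and was at most at 0.143 FPKM in alpha and 0.0180 FPKM in beta cells. Gdf11, an activin-like ligand, was at 0.165 to 0.715 FPKM in beta cells and at most at 0.233 FPKM in alpha and 0.0395 FPKM in delta cells. Tgfb1, the most widely expressed TGF-beta ligand in most tissues, was listed at 0 in all beta samples and in 4 of the alpha samples, was at 0.0434 FPKM in alpha 3, and ranged from 0 to 1.11 FPKM in delta cells. Without a filter on low values, Bmp7 (log2 difference 0.53, adjusted p = 0.0488, limma) and Gdf11 (-0.48, adjusted p = 0.0226, limma) were called in delta against beta cells. The remaining low ligands Bmp2, Bmp4, Bmp5, Bmp8b, Gdf1, Gdf3, Gdf9, Gdf15, Inhbb, Inhbe and Tgfb3 reached at most 0.984 FPKM in any sample, the value of the stress-induced Gdf15 in alpha 5.

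Bmp1 (ENSMUSG00000022098, chromosome 14, 70474558 to 70520234) carries a BMP name but encodes a metalloprotease that processes procollagens and cleaves chordin. It was at 0.521, 1.12, 1.15, 0.266 and 1.11 FPKM in alpha samples 1 to 5 and at 2.59, 3.97, 0.930 and 1.74 FPKM in beta samples 1 to 4. Delta cells ranged from 0.365 to 0.903 FPKM with a median of 0.527 FPKM. Beta 3 was close to the highest delta sample and within the range of alpha cells, so that beta and delta samples were separated by a narrow margin. Delta cells were lower than beta cells, with a log2 difference of -1.01 (SE 0.294, adjusted p = 0.0290, limma). Leaving out beta 1 or beta 2 ended this call, with adjusted p = 0.0546 and 0.0565 (limma). Beta against alpha cells gave 0.80 (SE 0.306, adjusted p = 0.1285, limma), a difference called in 3 of 23 alternative fits, with adjusted p down to 0.0167.

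**Figure D2:**
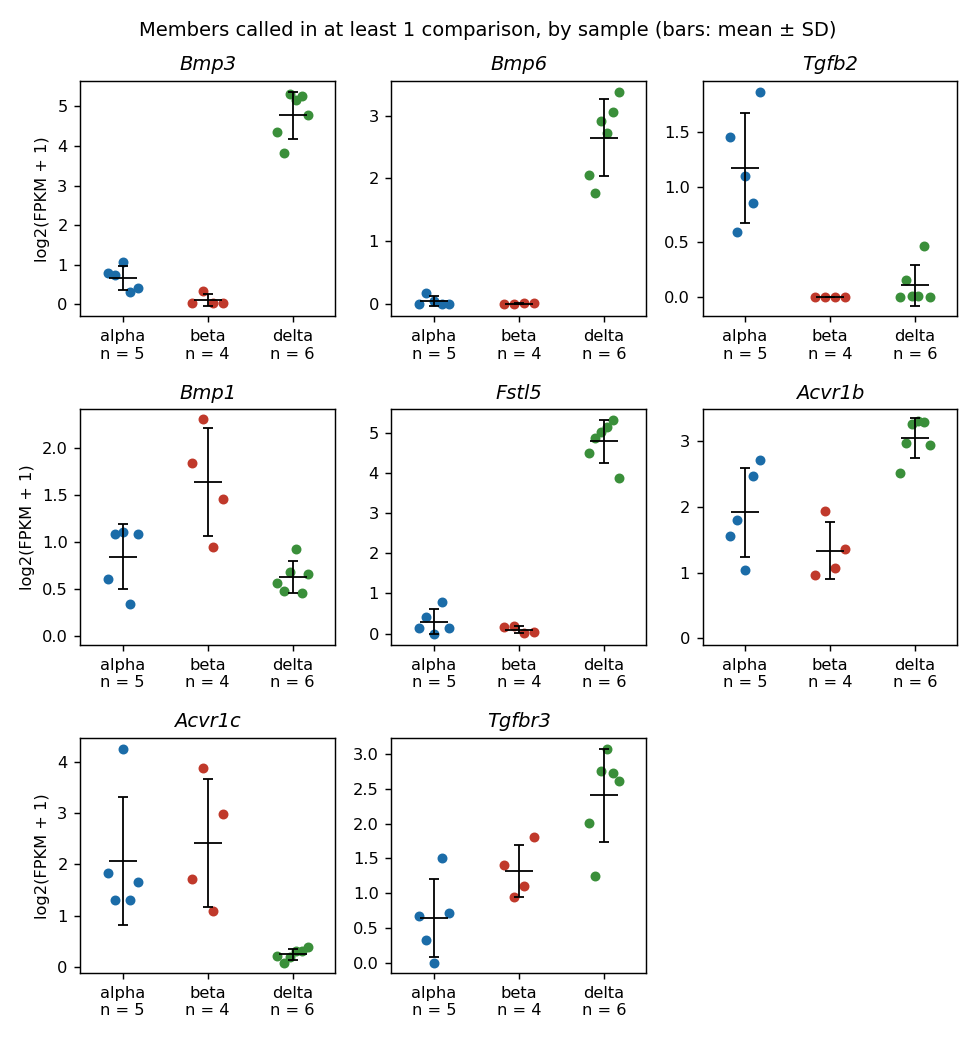
Levels in each sample of the 8 genes called in at least 1 comparison, as log2(FPKM + 1), for alpha (blue), beta (red) and delta cells (green); each point is 1 sample and the bars give the mean ± SD. Delta samples lie above all others for Bmp3, Bmp6 and Fstl5 and below all others for Acvr1c.

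Fstl5 (ENSMUSG00000034098, chromosome 3, 76074270 to 76710019) encodes a secreted follistatin-like protein of the follistatin and SPARC group, whose ligands are poorly known. In alpha samples 1 to 5 it was at 0.110, 0.333, 0, 0.732 and 0.104 FPKM, and in beta samples 1 to 4 at 0.125, 0.150, 0.00664 and 0.0229 FPKM. Delta cells ranged from 13.5 to 38.7 FPKM with a median of 29.8 FPKM. The lowest delta sample, delta 6, was thus far above the highest alpha sample. The means in delta cells were 109 times those in alpha cells and 367 times those in beta cells, and the former was 204 times without alpha 4. The log2 difference was 4.48 from alpha cells (SE 0.281, adjusted p = 6.54e-08, limma) and 4.68 from beta cells (SE 0.299, adjusted p = 7.69e-08, limma). Alpha cells had 0.916% (0.490% without alpha 4) and beta cells 0.273% of the delta mean, beside 0.992% and 0.101% for Sst.

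Fstl1, a follistatin-like glycoprotein gene that is most active in connective tissue, was at 0.477 to 7.68 FPKM in alpha, 0.980 to 3.51 FPKM in beta and 0.468 to 2.40 FPKM in delta cells, ranges that overlapped. None of its comparisons was called, with adjusted p of 0.709 or more (limma). The other 6 secreted regulators were below 1 FPKM on average in each cell type. Fst (follistatin) was above 0 in delta 3, at 0.0988 FPKM, Nog (noggin) in delta 5, at 0.166 FPKM, and Grem1 in alpha 5, at 0.00908 FPKM, and each was listed at 0 in the other 14 samples. Chrd (chordin) was at most at 0.646 FPKM, in delta 2, and Fstl3 at most at 0.546 FPKM, in delta 1. Fstl4 came closest to the filter, with a mean of 0.985 FPKM in alpha cells that rested on alpha 4 (1.22 FPKM) and alpha 5 (3.49 FPKM), and was listed at 0 in all beta samples. The tested gene nearest to the filter was Bmpr1b, with a mean of 1.16 FPKM in beta cells.

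Among the type I receptors, Acvr1b (ENSMUSG00000000532, chromosome 15, 101174067 to 101213684) encodes ALK4, the main activin and Nodal receptor. It was at 1.95, 2.49, 1.07, 4.53 and 5.57 FPKM in alpha samples 1 to 5 and at 0.952, 2.84, 1.11 and 1.57 FPKM in beta samples 1 to 4. In delta cells it ranged from 4.73 to 8.97 FPKM with a median of 7.74 FPKM. All delta samples were above all beta samples, but alpha 5 was above delta 1. The log2 difference from beta cells was 1.72 (SE 0.344, adjusted p = 0.00303, limma). The difference from alpha cells was 1.13 (SE 0.323, adjusted p = 0.0447, limma), and this call was made in 5 of 24 alternative fits, with adjusted p between 0.0158 and 0.116. Leaving out any one of alpha 1, 2 and 3, beta 1 and 4, and delta 2 to 6 ended it, with adjusted p from 0.0505 to 0.116 (limma).

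Acvr1c (ENSMUSG00000026834, chromosome 2, 58267453 to 58357895) encodes ALK7, a receptor for Nodal, activin B and some GDF ligands. Its values in alpha samples 1 to 5 were 2.57, 1.48, 18.03, 1.48 and 2.14 FPKM, and in beta samples 1 to 4 they were 2.30, 13.7, 1.14 and 6.94 FPKM. All delta samples were low, from 0.0654 to 0.308 FPKM with a median of 0.202 FPKM. Delta cells thus lay below every alpha and beta sample, and alpha 3 stood far above the rest of its group. The means in alpha and beta cells were 26.5 and 30.9 times that in delta cells, and 9.88 times without alpha 3 and 17.8 times without beta 2. The log2 difference was -2.17 from beta cells (SE 0.570, adjusted p = 0.0171, limma) and -1.82 from alpha cells (SE 0.535, adjusted p = 0.0529, limma), the latter past the threshold in 7 of 24 alternative fits, one of them added after the data were seen. Leaving out beta 2 or beta 4 ended the call against beta cells, with adjusted p = 0.0530 and 0.0667 (limma), and so did testing all genes without a filter on low values, with adjusted p = 0.0635. Without alpha 3 the difference from alpha cells was -1.27 on the log2 scale with adjusted p = 0.112 (limma). Exons of Acvr1c overlap the antisense gene Gm13544, which was at 0.202, 1.17 and 0.0260 FPKM on average in alpha, beta and delta cells.

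For 3 of the genes called in delta against beta cells, a stretch upstream of a start site that lies outside every exon of GENCODE M21 is shown as the sequence context of the gene. Sequences are from RefSeq (GRCm38.p6), 5′ to 3′ on the strand of the gene, and capitals mark matches to a motif. The Fstl5 stretch (chr3:76075333-76075582, plus strand) precedes the downstream of 2 RefSeq starts, and which start these cells used was not analysed here. The Acvr1b stretch is chr15:101173822-101174066 on the plus strand, and the Acvr1c stretches are chr2:58357896-58358008 and, before a downstream RefSeq start, chr2:58324808-58325057, both on the minus strand.
Fstl5: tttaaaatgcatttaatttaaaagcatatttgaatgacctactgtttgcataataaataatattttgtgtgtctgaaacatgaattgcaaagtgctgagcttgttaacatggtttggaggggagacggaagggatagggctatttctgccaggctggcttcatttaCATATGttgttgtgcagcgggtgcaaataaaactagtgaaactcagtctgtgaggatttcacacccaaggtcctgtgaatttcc
Acvr1b: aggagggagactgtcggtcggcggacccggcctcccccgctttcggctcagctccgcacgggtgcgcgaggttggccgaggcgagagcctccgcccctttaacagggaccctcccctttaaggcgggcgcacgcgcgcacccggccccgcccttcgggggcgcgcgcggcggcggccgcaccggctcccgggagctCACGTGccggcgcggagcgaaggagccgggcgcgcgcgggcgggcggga
Acvr1c, upstream start: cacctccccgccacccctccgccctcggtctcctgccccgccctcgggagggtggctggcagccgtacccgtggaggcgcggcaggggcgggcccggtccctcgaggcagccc
Acvr1c, downstream start: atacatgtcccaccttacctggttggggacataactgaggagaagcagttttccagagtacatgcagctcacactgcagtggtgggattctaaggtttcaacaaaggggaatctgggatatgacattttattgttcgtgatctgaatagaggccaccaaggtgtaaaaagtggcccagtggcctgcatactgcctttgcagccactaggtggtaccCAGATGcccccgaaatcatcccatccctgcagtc

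Both strands were searched for 5 motifs, the palindromic Smad box GTCTAGAC, the GC-rich Smad element GGCGCC, the cyclic AMP response element TGACGTCA, the TATA box TATAAA and the E-box CANNTG. The Fstl5 and Acvr1b stretches each held 1 E-box, which begins 84 and 54 bases before the start, and no other match. The stretch before the downstream Acvr1c start held 1 E-box, which begins 34 bases before that start, and the shorter one before the upstream start held none of the 5 motifs. Over the same length, an E-box was present in 66.2%, 65.7%, 66.2% and 39.9% of all 32851 RefSeq promoters for the Fstl5, Acvr1b, downstream and upstream Acvr1c stretches, so these matches are no more than a description. Over 250 bases, the shares with GTCTAGAC, GGCGCC, TGACGTCA and TATAAA were 0.167%, 9.59%, 1.55% and 12.4%. In all, 36 of the 49 genes had a promoter entry.

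The other type I receptors were not called in any comparison. Bmpr1a, a BMP receptor gene (ALK3), was the highest of them, at 12.02 to 33.1 FPKM in alpha, 7.25 to 48.8 FPKM in beta and 11.6 to 25.3 FPKM in delta cells. Delta cells differed from alpha cells by 0.10 (95% confidence interval -0.85 to 1.05) and from beta cells by 0.07 (-0.94 to 1.08) on the log2 scale. Acvr1 (ALK2), a type I receptor for BMPs, had means of 5.38 ± 3.22, 5.88 ± 5.08 and 6.47 ± 2.04 FPKM in alpha, beta and delta cells (SD, n = 5, 4 and 6). Tgfbr1 (ALK5), the TGF-beta type I receptor gene, had means of 11.3 ± 9.75, 13.9 ± 8.01 and 6.10 ± 1.80 FPKM, and its difference between delta and beta cells was -0.95 (SE 0.496, adjusted p = 0.225, limma). After division by median-ratio size factors or quantile normalization it was -1.32 and -1.26, and past the threshold. Bmpr1b (ALK6), another BMP receptor gene, was above 0 in all beta samples, at 0.456 to 2.16 FPKM, and in all delta samples, at 0.269 to 1.18 FPKM, and at most at 0.0540 FPKM in alpha cells except alpha 4, at 0.998 FPKM. Its beta against alpha difference was 0.83 (SE 0.322, adjusted p = 0.1333, limma). Without alpha 4 it was 1.02 and past the threshold. Acvrl1 (ALK1), an endothelial receptor gene, was at 2.25 FPKM in delta 5 and at most at 0.0477 FPKM in the other 14 samples.

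Type II receptor genes showed no called difference either. Acvr2a, an activin and BMP type II receptor gene, ranged from 13.9 to 28.5 FPKM in alpha, 8.60 to 50.4 FPKM in beta and 15.2 to 29.4 FPKM in delta cells. The log2 difference of delta from alpha cells was 0.01 (95% confidence interval -0.85 to 0.86). Its exons overlap Orc4 on the opposite strand, which was at 22.5, 38.9 and 12.4 FPKM on average. Bmpr2, the BMP type II receptor gene, had means of 6.25 ± 3.45, 6.96 ± 5.47 and 6.39 ± 1.54 FPKM in alpha, beta and delta cells (SD, n = 5, 4 and 6). Acvr2b, an activin type II receptor gene, was lower, at 0.435 to 2.82, 0.334 to 0.936 and 0.224 to 2.33 FPKM. The TGF-beta type II receptor gene Tgfbr2 was not tested: it was above 0 in 1 alpha sample (0.0293 FPKM), in 1 beta sample (0.00506 FPKM) and in all delta samples (0.0226 to 0.598 FPKM).

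Tgfbr3 (ENSMUSG00000029287, chromosome 5, 107106570 to 107289629) encodes betaglycan, a co-receptor that presents TGF-beta2 and binds inhibin. Alpha samples 1 to 5 were at 0.593, 0.252, 0, 1.85 and 0.648 FPKM, and beta samples 1 to 4 at 1.65, 0.931, 1.15 and 2.51 FPKM. Delta cells ranged from 1.37 to 7.43 FPKM with a median of 5.37 FPKM. Delta 2 lay within the range of alpha and beta cells, and the other 5 delta samples were above both. Delta cells exceeded alpha cells by a log2 difference of 1.76 (SE 0.356, adjusted p = 0.00478, limma). Against beta cells the difference was 1.09 (SE 0.380, adjusted p = 0.0670, limma), and it passed the threshold without delta 2, at 1.32.

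**Figure D3:**
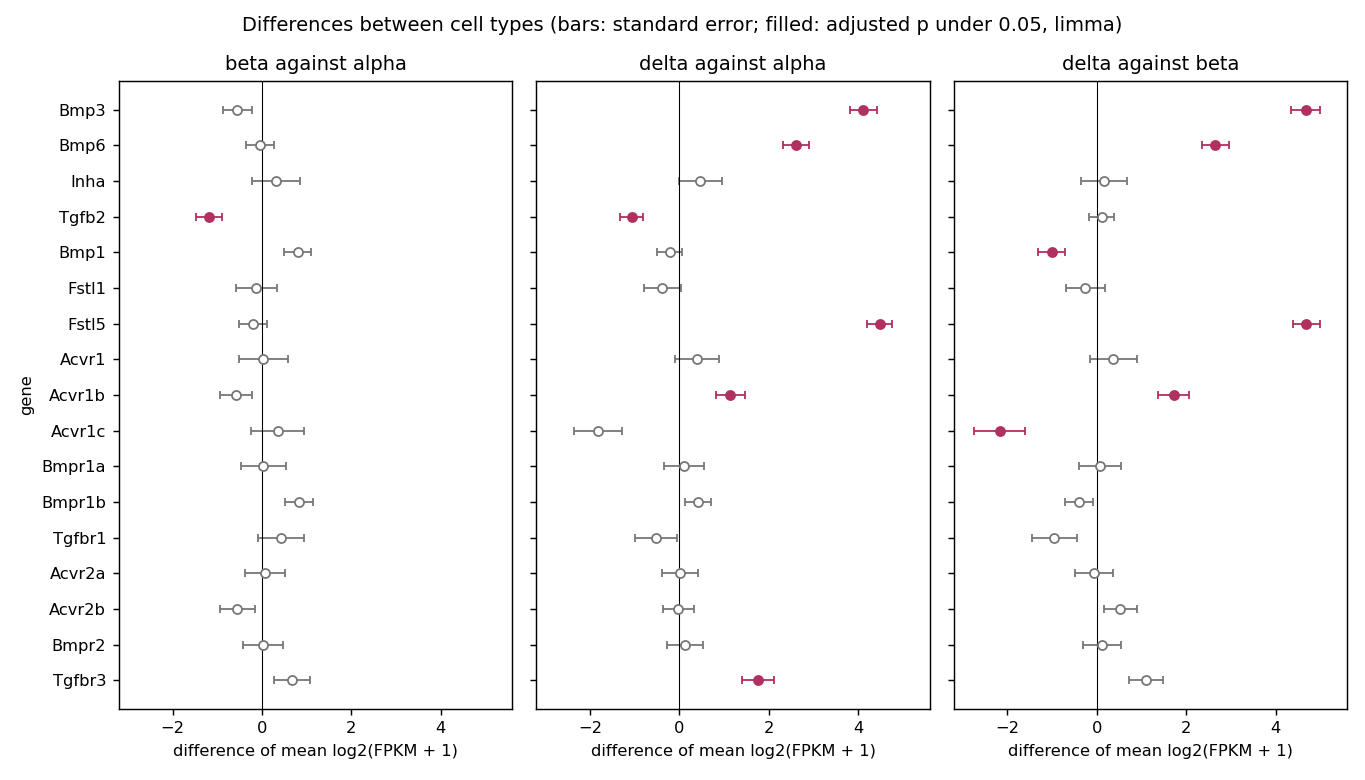
Differences of mean log2(FPKM + 1) between cell types for the 17 tested genes (points) with their standard errors (bars); filled points had an adjusted p under 0.05 (limma). The filled points farthest to the right are Bmp3 and Fstl5 in both comparisons of delta cells, at 4.11 to 4.68, and beta against alpha cells has a single filled point, Tgfb2, at -1.18.

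Counted over the 17 genes, 1 was called in beta against alpha cells, and it was lower in beta cells; at an unadjusted p under 0.05, 3, 7 and 7 of the 17 passed in beta against alpha, delta against alpha and delta against beta cells, beside 22.9%, 16.7% and 28.4% of all genes (limma). Over all 14405 genes tested, 7.66% were called in beta against alpha cells and 4.82% were called lower. In delta against alpha cells 6 of the 17 were called, 5 higher and 1 lower, beside a background of 6.81% called, 5.33% higher and 1.48% lower. In delta against beta cells 6 were called, 4 higher and 2 lower, beside 14.7% called, 11.7% higher and 2.99% lower. Both comparisons of delta cells share the same 6 samples. These counts are no evidence about the family, because Bmp3, Bmp6 and Fstl5 passed the filter through delta cells alone, Tgfb2 through alpha cells alone, and Bmp1 and Bmpr1b through beta cells alone. The median log2 differences of the 17 genes were 0.03, 0.13 and 0.11 for beta against alpha, delta against alpha and delta against beta cells, beside -0.13, 0.13 and 0.30 over all genes. Dividing by median-ratio size factors shifted the median over all genes by 0.13, -0.12 and -0.28. It also changed the share of higher genes among all calls from 37.05%, 78.3% and 79.6% to 52.7%, 67.9% and 51.5%. In beta against alpha cells this share also depended on single samples, at 21.2% without beta 2 and 60.2% without beta 3. All 13 calls in the family kept their direction under both scalings tried. They had the same direction within the low and the high ribosomal set. The high set holds 1 beta sample, so that its comparisons with beta cells rest on beta 2. Except for Acvr1b and Tgfbr3 in delta against alpha cells, the groups of these calls did not overlap. No split of the samples could then give another direction. Sizes differed between the sets, as for Acvr1b in delta against beta cells, at 0.81 in the high and 2.07 in the low set on the log2 scale.

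Other genes of the pathway were read from a separate list of 57 intracellular mediators, co-receptors, further ligands, extracellular regulators and targets, of which 32 were tested. In beta against alpha cells none was higher and 2 were lower. In delta against alpha cells 3 were higher and 1 was lower, and in delta against beta cells 10 were higher and none was lower; over all genes the shares called were 7.66%, 6.81% and 14.7%, with 4.82% lower in the first, 5.33% higher and 1.48% lower in the second and 11.7% higher in the third. These counts are no evidence about the list, because among its tested genes Cer1, Tgif1, Tab1 and Pmepa1 passed the filter through delta cells alone and Id3 and Mstn through alpha cells alone. At an unadjusted p under 0.05, 9, 11 and 14 of the 32 passed in these comparisons, beside 22.9%, 16.7% and 28.4% of all genes (limma). The list's median log2 differences were -0.22, 0.41 and 0.77 in the 3 comparisons, beside -0.13, 0.13 and 0.30 over all genes. After median-ratio scaling the calls in delta against beta cells were 6 higher and 2 lower, and after quantile normalization 7 higher and 1 lower.

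Cer1, which encodes the secreted Nodal and BMP antagonist Cerberus, differed most. It was at 0.0605, 1.04, 0.370, 0.0322 and 0.227 FPKM in alpha samples 1 to 5, at most at 0.0875 FPKM in beta cells, and at 8.17 to 13.7 FPKM in delta cells. Delta samples did not overlap with the others. The log2 difference was 3.22 from alpha cells (SE 0.244, adjusted p = 3.18e-07, limma) and 3.54 from beta cells (SE 0.260, adjusted p = 1.69e-07, limma). Tgif1, a gene for a co-repressor of Smad target genes, was listed at 0 in all beta samples and in 4 alpha samples, was at 0.118 FPKM in alpha 2, and ranged from 0.823 to 4.05 FPKM in delta cells. On the log2(FPKM + 1) scale it was 1.52 above alpha cells (SE 0.287, adjusted p = 0.00268, limma) and 1.55 above beta cells (SE 0.306, adjusted p = 0.00263, limma).

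Lefty1, which encodes an inhibitor of Nodal, was low in beta cells, at 0.379 to 2.49 FPKM, against 3.84 to 13.2 FPKM in alpha and 3.25 to 30.6 FPKM in delta cells, and beta samples did not overlap with either. Beta cells differed from alpha cells by -2.15 (SE 0.566, adjusted p = 0.0302, limma), and delta from beta cells by 2.07 (SE 0.544, adjusted p = 0.0170, limma). Leaving out alpha 2 or 5 or beta 1, 3 or 4 ended the former call, with adjusted p up to 0.0973, and leaving out beta 1 or 4 the latter, with adjusted p up to 0.0622. Bambi, a gene for a pseudoreceptor that blocks type I receptors, was 2.35 above beta cells in delta cells on the log2 scale (SE 0.601, adjusted p = 0.0145, limma), with 3.54 to 22.5 FPKM in delta and 0.377 to 3.41 FPKM in beta cells; without beta 4 adjusted p was 0.0548. Ltbp3, whose product binds latent TGF-beta, was 2.02 higher (SE 0.577, adjusted p = 0.0266, limma), with 1.18 to 9.59 FPKM against 0.615 to 0.871 FPKM. Leaving out any of the 4 beta samples or delta 3 to 6 ended that call, with adjusted p up to 0.0666. Beta cells were also low in Ppy, at 16.9 to 98.1 FPKM against 10857 to 48600 FPKM in alpha and delta samples, and in the summed ductal markers, and the part of these in the differences of Lefty1, Bambi and Ltbp3 was not tested.

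Of the Id genes, which are targets of BMP Smads, Id2 and Id3 were tested. Id2 was at 1.77 to 22.2 FPKM in delta cells and 1.18 to 1.94 FPKM in alpha cells (log2 difference 1.70, SE 0.472, adjusted p = 0.0383, limma). Only delta 6 lay within the range of alpha cells, and leaving out any alpha sample, beta 4 or delta 1 to 5 ended the call, with adjusted p up to 0.0925. In beta cells Id2 was at 0.735 to 7.81 FPKM, and its delta against beta difference of 1.35 was not called (SE 0.503, adjusted p = 0.0858, limma). Id3 was above 0 in all alpha samples, at 0.492 to 6.43 FPKM, was listed at 0 in all beta samples and ranged from 0 to 0.439 FPKM in delta cells. Its difference was -1.34 for beta against alpha (SE 0.390, adjusted p = 0.0461, limma) and -1.25 for delta against alpha cells (SE 0.352, adjusted p = 0.0428, limma). The former call was lost without alpha 1 or 2, any beta sample or delta 3, with adjusted p up to 0.0892, and the latter without alpha 1 or 2, delta 1 or delta 3 to 6, with adjusted p up to 0.0717. As for Tgfb2, Col1a2 and Krt19 were highest in alpha cells, and their part in the Id3 differences was not tested. The remaining genes called in delta against beta cells were Smad1, a BMP Smad gene, Smad7, which encodes an inhibitory Smad, the ubiquitin ligase gene Smurf1, the proprotein convertase gene Furin and the BMP antagonist gene Nbl1. The differences of Smad1 (1.60, adjusted p = 0.0140, limma) and Smurf1 (1.28, adjusted p = 0.00825, limma) were called whichever sample was left out. Furin (1.48, adjusted p = 0.0131, limma) was not called without beta 4, with adjusted p = 0.0546. The call of Smad7 (1.14, adjusted p = 0.0350, limma) was lost without beta 1, 2 or 3 or delta 2 or 3, with adjusted p up to 0.0781. Nbl1 (1.52, adjusted p = 0.0421, limma) was called in 6 of 23 alternative fits, and leaving out alpha 1, any beta sample, delta 1 or delta 3 to 6 ended its call, with adjusted p up to 0.0858.

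**Figure D4:**
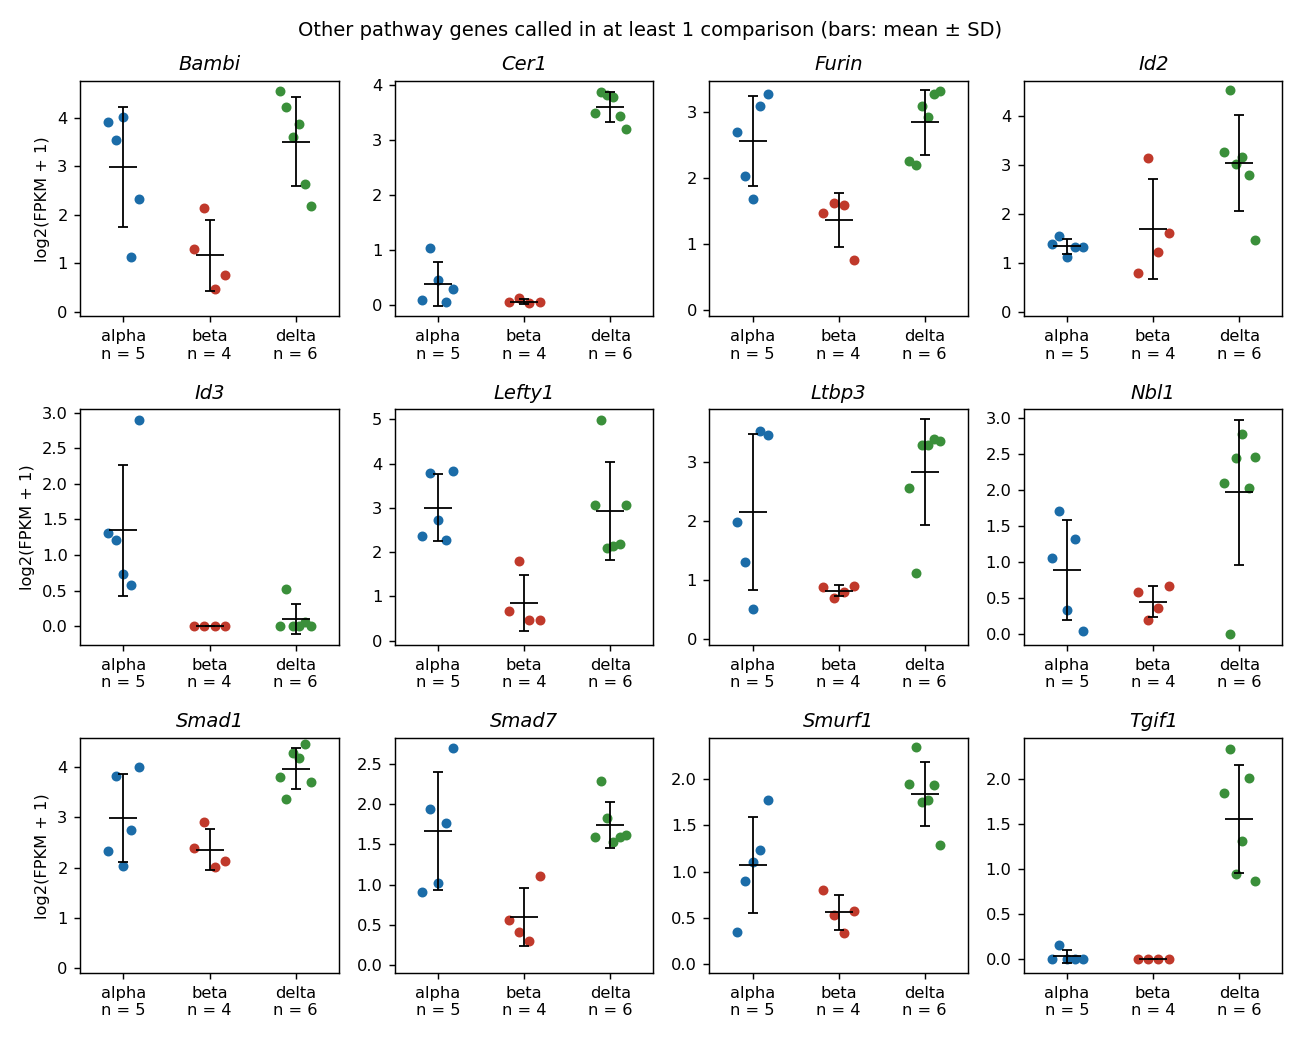
Levels in each sample of the 12 further pathway genes called in at least 1 comparison, as log2(FPKM + 1), for alpha (blue), beta (red) and delta cells (green); points are samples and bars give the mean ± SD. Cer1 and Tgif1 are high in delta cells alone, Id3 in alpha cells alone, and Lefty1 is low in beta cells.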

How the data were processed

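The data were RNA levels of 15 sorted islet cell samples (alpha n = 5, beta n = 4, delta n = 6), grouped by their labels. The authors amplified the RNA, aligned the reads to GRCm38 with TopHat (TopHat2 2.0.8 in the submitters' processing notes) and quantified genes with Cufflinks 2.2.1; the deposited table holds FPKM, in 1 column per sample. The authors compared cell types by edgeR on read counts. Since FPKM are not counts, limma took its place here.

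Genes with a mean above 1 FPKM in at least 1 cell type (14405) were fitted with limma 3.58.1 in R 4.3.3 (functions lmFit and eBayes, trended variance) on log2(FPKM + 1), with all 15 samples in 1 fit and no covariate. P-values were two-sided and adjusted by Benjamini-Hochberg over all genes tested, and an adjusted p under 0.05 was a call. The fit was tested on simulated data. Other steps used Python 3.11.15, pandas 2.3.3, numpy 2.4.6 and matplotlib 3.10.9. Exon overlaps were read from GENCODE M21 (GRCm38). Reads per sample are not in the table and FPKM of low genes are imprecise at low depth.

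The symbols matched 50 genes, of which 1 is not reported here, and the other 49 are accounted for; genes called at least once are given by sample, and the other pathway genes named are the called ones, led by at most 4 per direction and comparison. The genes and lists were chosen with earlier results of these data known. Alternatives were another pseudocount, filter or threshold, fits of 2 cell types, a replicate block, 2 scalings, the ribosomal set as a covariate, and each sample left out.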

Additional observations from a re-analysis of the deposited data

Results flagged for a closer look

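Among the 51 groups of samples formed by the 17 tested genes and 3 cell types, 8 held a sample far from the others by Dixon's criterion on log2(FPKM + 1). Chance alone gives such a sample in about 1 of 20 independent groups, but these groups share samples, and Tgfb2 in beta cells, listed at 0 throughout, could show none. Alpha 3 had the highest Acvr1c, at 18 FPKM against 1.48 to 2.57 FPKM in the other alpha samples, and the lowest Acvr1, at 0.651 FPKM against 5.27 to 9.73 FPKM. Delta 6 had the lowest Bmpr1a, at 11.6 FPKM against 23.0 to 25.3 FPKM, and the lowest Tgfbr1, at 2.55 FPKM against 6.14 to 7.33 FPKM. Delta 2 had the lowest Acvr1, at 2.66 FPKM against 5.87 to 8.18 FPKM. Alpha 4 had the highest Bmpr1b, at 0.998 FPKM against at most 0.0540 FPKM. Beta 2 had the highest Bmp3, at 0.263 FPKM against at most 0.0327 FPKM. Delta 5 had the highest Tgfb2, at 0.381 FPKM against at most 0.114 FPKM.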

How the results depend on the processing

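Of 13 calls in the family, 10 were made in every alternative fit in which the gene was tested; the exceptions were Acvr1b in delta against alpha cells and Acvr1c and Bmp1 in delta against beta cells. At the stricter threshold of adjusted p under 0.01, the calls were 0, 4 and 4 in beta against alpha, delta against alpha and delta against beta cells, and those not made were these 3 and both calls of Tgfb2. A further 6 comparisons of single genes were called in some alternative alone, and none of these 19 changed direction. Of the 32 comparisons never called, 18 changed sign in some alternative.

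The calls in the family in beta against alpha cells, 1 as reported, became 3 with a pseudocount of 0.1, 0 above 5 FPKM (where Tgfb2 was not tested), 2 with median-ratio size factors, 3 after quantile normalization and 0 at adjusted p under 0.01, and 1 to 2 when a sample was left out, with 2 without alpha 4 or beta 3. Delta against alpha cells gave 3 in place of 6 above 5 FPKM. Among the other pathway genes, beta against alpha cells gave 6 calls in place of 2 with a pseudocount of 0.1, 0 with no filter, 1 above 5 FPKM, 5 with median-ratio size factors, 4 after quantile normalization, 5 with the ribosomal set as a covariate and 0 to 4 with a sample left out. Delta against alpha cells gave 2 in place of 4 with no filter, 1 above 5 FPKM and 2 to 6 with a sample left out. Delta against beta cells gave 5 in place of 10 with no filter, 6 above 5 FPKM and 5 to 12 with a sample left out.

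Over all genes, the 1104 calls in beta against alpha cells became 520 in a fit of these 2 cell types, 2072 with median-ratio size factors, 2058 after quantile normalization, 461 at adjusted p under 0.01 and 698 to 1743 with a sample left out (698 without beta 4, 1743 without beta 2). The 981 calls in delta against alpha cells became 518 above 5 FPKM and 567 at adjusted p under 0.01, and the 2114 in delta against beta cells 1319 and 1045. The causes of these shifts were not tested, except that fewer genes were tested above 5 FPKM.

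Same-numbered samples correlated at -0.152 to 0.281 over 13 pairs, 5 of them over 0.1, and 3 of 15 samples correlated best with their own number. The numbers were not taken as pairs. These pairs include delta samples, which came from another mouse line. Alpha and beta samples, both from Glu-Venus mice, could share pools. Their pairs were not examined alone, so whether they are paired is not known. With the replicate number as a block, 1, 5 and 4 of the family were called in beta against alpha, delta against alpha and delta against beta cells, 2, 3 and 7 of the other pathway genes, and 1227, 831 and 2001 of all genes. The calls in the family not made with the block were Acvr1b in delta against alpha cells (adjusted p = 0.0536) and Acvr1c and Bmp1 in delta against beta cells (adjusted p = 0.0794 and 0.0680; limma). Low FPKM cannot be read as absence, because depth is unknown in 9 samples.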
